A study of Mus musculus with 15 samples.

Results

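The regions described are 1525 histone H3 positions of the mouse nucleus accumbens that were listed as changed in both of the tables in which susceptible mice take part, susceptible against control and resilient against susceptible. A position was a member when its chromosome and coordinate matched exactly in both tables and it lay outside chromosome 1. The 2 tables held 30055 distinct positions outside chromosome 1, and the 3 occupancy tables of the study held 77190 distinct positions over all chromosomes. The members were chosen by these marks, so their number and direction are a description and carry no test.

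The study took nucleus accumbens from C57BL/6 mice in a chronic social defeat stress experiment. Susceptible and resilient mice had both been defeated by a CD1 mouse for 10 min a day on 10 days, and were parted by a social interaction test 24 h after the last defeat; in this field, susceptible stands for mice that avoid others and resilient for those that do not. The labels call the remaining mice control and do not say how they were handled. Tissue was taken 48 h after the last defeat, punches of 10 mice were pooled per replicate, and H3-bound DNA was collected after digestion with micrococcal nuclease, which cuts between nucleosomes. Of the 15 samples, 1 H3 sample and 1 ACF1 sample per group bear on what follows. The labels speak of biological triplicates and the design text of sequencing replicates, yet the deposited files held 1 result per pair of groups, so no spread between animals or libraries could be taken and no p-value is given. The punches hold many cell types, and fewer cells of a type cannot be told apart from a change within each cell.

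Nucleosomes wrap DNA around a core of histones, of which H3 is one, and the level of H3 at a position reflects how often a nucleosome sits there. The ACF complex, built from the ATPase SNF2H and its partner ACF1, slides nucleosomes and spaces them evenly. The nucleus accumbens takes part in reward and motivation, and lasting defeat stress is widely used in mice as a model of avoidance after adversity.

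The deposited files give positions and not the sequence under them, so sequence is shown for the members nearest to gene starts, where a promoter window of the RefSeq build GRCm38.p6 reaches them. These are the members before the starts of Psg23, a pregnancy-specific glycoprotein gene, and Slc36a3, a gene of the amino acid transporter family SLC36. Each window is printed in the direction of its gene, and capitals mark the 147 bases centred on the listed position, the length wrapped in a nucleosome core. For Psg23 the window starts inside that stretch, which leaves 132 capital bases. The capitals were placed by the distance from the gene start that the tables give, and the files do not say whether a listed position is the centre of a nucleosome. The Psg23 gene had the same span of 10159 bp in both annotations, while that of Slc36a3 differed by 24 bp, so its capitals may be off by about that much.
Psg23, chr7:18616452-18616751 minus strand: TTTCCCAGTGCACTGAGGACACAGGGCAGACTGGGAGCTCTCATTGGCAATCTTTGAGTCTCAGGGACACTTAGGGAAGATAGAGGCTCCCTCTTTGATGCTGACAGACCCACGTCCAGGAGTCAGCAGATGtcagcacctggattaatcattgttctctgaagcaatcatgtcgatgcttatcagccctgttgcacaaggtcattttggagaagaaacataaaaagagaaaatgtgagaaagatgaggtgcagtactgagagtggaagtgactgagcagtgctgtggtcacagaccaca
Slc36a3, chr11:55151659-55151958 minus strand: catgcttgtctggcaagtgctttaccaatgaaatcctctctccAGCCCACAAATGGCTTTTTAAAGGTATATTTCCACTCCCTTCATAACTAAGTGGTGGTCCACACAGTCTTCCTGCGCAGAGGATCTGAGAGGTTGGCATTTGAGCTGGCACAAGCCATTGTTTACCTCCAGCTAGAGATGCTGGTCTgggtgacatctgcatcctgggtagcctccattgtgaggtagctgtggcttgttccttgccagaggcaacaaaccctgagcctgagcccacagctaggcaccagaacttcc

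Nearly every member had the pattern that sets susceptible mice above both other groups. Of the 1525 members, 1518 were marked Up when susceptible mice were set against controls and Down when resilient mice were set against susceptible ones, a pattern called highest in susceptible below. The files do not define Up: it was read as more H3 in the group named first, and the other reading would turn round all directions given below. Chromosome 1 is left out of the counts that follow, except where it is named. Outside it, 16617 of the 49408 positions of susceptible against control and 14963 of the 16273 of resilient against susceptible remained. Of these, 40.4% were Up in susceptible against control, and 51.2% were Down in resilient against susceptible. The tables share the susceptible library, the rule used both of them, and nothing is read from these shares. Members made up 9.18% of the remaining positions of susceptible against control and 10.2% of those of resilient against susceptible. Seen by direction, 22.6% of the Up positions of susceptible against control were members, but 0.0505% of the Down positions. In resilient against susceptible, 19.8% of the Down positions and 0.0959% of the Up positions were members. The other groups had a like excess in the tables in which each takes part. Of 2216 positions listed in both susceptible against control and resilient against control, 2204 were highest in control mice. Of 1417 listed in both resilient against susceptible and resilient against control, 1410 were highest in resilient mice. The excess was therefore not particular to susceptible mice.

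The remaining 7 members had other patterns. Down in susceptible against control and Up in resilient against susceptible, the pattern of lowest H3 in susceptible mice, was found at 5 positions. One of these lay in A230108P19Rik, at position 6220611 of chromosome 2. The others, at 10965441 of chromosome 11, 3582261 of chromosome 19, 3875411 of chromosome 3 and 11022231 of chromosome 4, had no gene named. Up in both tables were 2 positions with no gene named, at 13557081 of chromosome 4 and 12549891 of chromosome 7.

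Resilient against control, the remaining pair of groups, was not used by the rule. It shares its libraries with both tables that were. Its table held 16132 positions outside chromosome 1, and 0 of the 1525 members were among them. It listed 13.3% of all positions of susceptible against control and 9.47% of those of resilient against susceptible. A member found there would be listed in all 3 tables, while these shares need listing in 2. The sets are therefore not alike, and nothing is read from the contrast. With a looser match, 0 members had a resilient against control position within 100 bp, 7 had one within 200 bp and 28 within 500 bp. A position absent from a table of selected positions may be unchanged or just short of the authors' threshold, which is not given in the sources used here.

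Just outside the rule lay 23 positions of susceptible against control with a position of resilient against susceptible within 100 bp but not at the same coordinate. Of these, 13 were Down in the first table and Up in the second, 5 were Up and then Down, 3 were Down in both and 2 were Up in both. The closest, a Down and Up pair in Sipa1 at 5656821 of chromosome 19, was 10 bp apart. The closest with the marks of highest H3 in susceptible mice were a position of Mid1, at 166423701 of chromosome X, and one at 2779691 of chromosome Y, both 50 bp from their counterpart. The pattern of lowest H3 in susceptible mice, with 5 members, thus depended on exact matching more than the pattern of highest H3, with 1518.

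The members lay singly along the genome. The smallest gap between neighbouring members was 830 bp, the median gap was 938 kb, and 31 of 1505 gaps were under 10000 bp. Counted in 1 Mb blocks, a division chosen after the positions had been seen since no 2 members lay within 500 bp of each other, 1052 blocks held a member. Of these, 707 held 1 member, 336 held 2 to 4 and 9 held at least 5.

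The fullest block was at the start of chromosome 11, between 3 and 4 Mb, with 13 members, 10 of them in Sfi1 and 1 each at Pisd-ps1, Sec14l3 and Mtfp1. Next came a block of 7 members on chromosome 7 between 24 and 25 Mb, which took in Nlrp5, Nlrp4e and the zinc finger gene Zfp235. Chromosome Y held 7 members, all within 119 kb from 2781121 to 2899941 and all in the class the tables call pericentromere. On chromosome X, 6 of the 11 members lay within 34.6 kb between 166 and 167 Mb, at Mid1, G530011O06Rik and the sequence after them. Blocks of 6 members lay on chromosome 10 between 83 and 84 Mb, with 1500009L16Rik, and on chromosome 12 between 120 and 121 Mb, with the transporter gene Abcb5. All members of these 6 blocks were highest in susceptible mice, as were nearly all members.

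Members highest in susceptible mice numbered 1500 on the autosomes 2 to 19, or 0.659 per Mb. The density per autosome had a median of 0.625 per Mb and ran from 0.487 on chromosome 14 to 1.01 on chromosome 7, where 154 such members lay. Chromosomes 11 and 17 followed with 0.845 and 0.829 per Mb. Chromosome 7 was also dense in the tables themselves, with 3.86 Up positions per Mb in susceptible against control against 2.91 over all these autosomes. Members were 26.2% of its Up positions, where the autosomal share was 22.6% and the range ran from 18.5% on chromosome 3 to 29.6% on chromosome 11. Chromosome X held 0.066 per Mb, but 20.8% of its 53 Up positions were members. The sparse members of chromosome X thus went with few listed positions of any kind there.

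**Figure D1:**
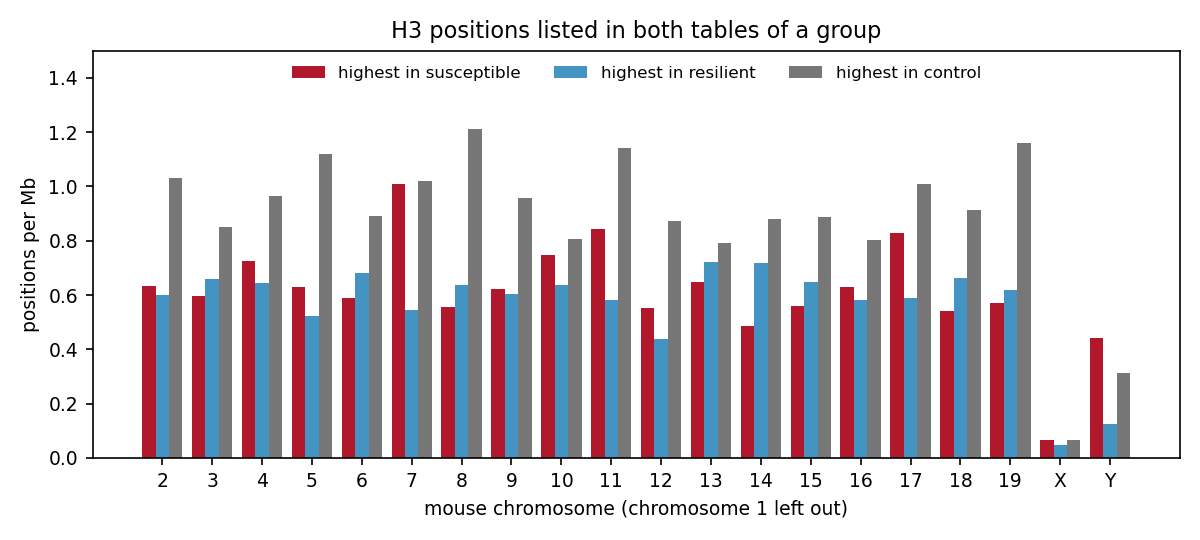
Positions listed in both tables of a group, per Mb of each chromosome, for positions highest in susceptible (red), resilient (blue) and control mice (grey). Positions highest in susceptible mice reached 1.01 per Mb on chromosome 7 and 0.066 per Mb on chromosome X.

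Most members lay outside genes, in shares close to those of the other listed positions. By the annotation class the tables give, 747 members (49.0%) were intergenic, against 48.9% of the other positions of the 2 tables. Gene bodies held 433 members (28.4%), against 28.8% of the other positions, and gene deserts held 277 (18.2%), against 17.5%. Promoter classes held 59 members (3.87%), where the share over all positions of the 2 tables was 4.28%. Positions highest in resilient mice had 32.1% in gene bodies and 21.1% in gene deserts, and those highest in control mice had 32.3% and 14.1%. With 1 result per pair of groups these differences could not be tested. Within gene bodies, the median member lay 56.4% of the gene length from the start, against 56.5% for the other positions.

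Genes with members were long. A member lay in or near 450 of the 5375 genes named in the 2 tables, or 8.37%. Their median length was 75.6 kb, against 39.4 kb for the other genes, and a longer gene offers more positions. A gene was named for 492 members and for 1033 there was none. Of the 450 genes, 420 had 1 member, 25 had 2 and 5 had at least 3.

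Sfi1, which encodes a centrin-binding protein of the centrosome, had 10 members, more than any other gene. They spanned 34.5 kb of its 61.6 kb on chromosome 11, from 3874.5 to 38324.5 bp after the gene start, so none lay in the last part of the gene. The susceptible against control table listed 24 Up and 11 Down positions in Sfi1, while resilient against susceptible had 26 Down and 0 Up, and resilient against control had 22 Down and 1 Up. Members were thus 10 of the 24 Up and of the 26 Down positions, and the rest of the gene's positions were listed in 1 of the 2 tables alone. All 10 members lay inside ACF1 segments of susceptible, resilient and control mice alike. Sfi1, Pisd-ps1 and Gm13152 are known to have near-identical copies elsewhere in the mouse genome, and the part of reads shared between copies was not tested.

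**Figure D2:**
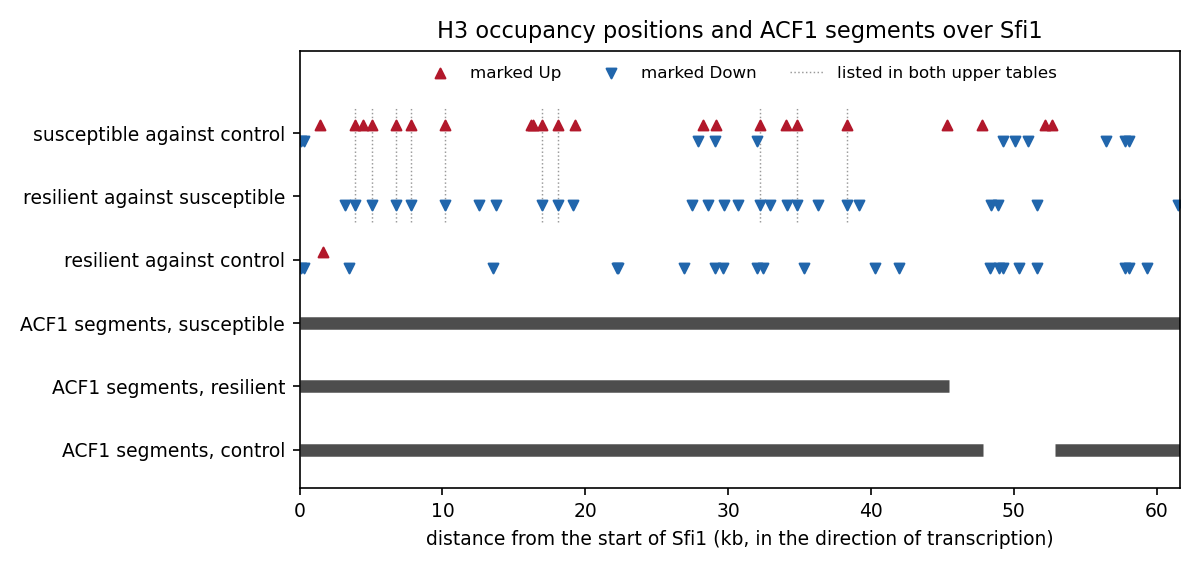
H3 occupancy positions and ACF1 segments over Sfi1 by distance from the gene start (kb); red triangles are Up, blue triangles Down, dotted lines the 10 members and grey bars ACF1 segments. The members lie between 3874.5 and 38324.5 bp after the start, under segments of all 3 lists.

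Mid1, a gene for a ubiquitin ligase bound to microtubules, had 3 members within 11.7 kb on chromosome X, at 93448.5, 94768.5 and 105148.5 bp from its start. With these members counted in, Mid1 had 14 Up and 2 Down in susceptible against control and 27 Down and 0 Up in resilient against susceptible. In resilient against control, where no member was listed, it had 8 Down and 0 Up. The member 105148.5 bp from the start of Mid1 lay inside a control ACF1 segment and 4100 bp from the nearest segment of the susceptible and of the resilient list. The other members of Mid1 lay outside the segments of every list.

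Gm13152, a gene on chromosome 4, also had 3 members, within 38.4 kb of its 337.6 kb. Its positions in the tables were 11 Up and 7 Down in susceptible against control, 16 Down and 3 Up in resilient against susceptible, and 26 Down and 3 Up in resilient against control. Of its members, 2 lay inside segments of all ACF1 lists and 1 lay 25051 bp from the nearest susceptible segment. Nlrp5, a gene of the oocyte that the early embryo depends on, had 3 members between 27276.5 and 42326.5 bp from its start. All 3 Up positions of Nlrp5 in susceptible against control were members, with 4 Down in resilient against susceptible and 0 positions in resilient against control. Rbms3, which encodes an RNA-binding protein, had 3 members spread over its 1057.2 kb, with 6 Up and 3 Down in susceptible against control, and 3 Down and 2 Up in resilient against susceptible. Of 18 named genes of a list of copy-rich and zinc finger loci, picked from earlier results of these data, 7 had a member (38.9%, against 8.37% of all named genes) and they held 20: Sfi1, Mid1, Gm13152, Pisd-ps1, Gm13251, Gm13157 and Skint5.

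Of the 30 genes with at least 2 members, 5 had no listed position in the 2 tables besides their members. Chrnb1, the beta subunit gene of the nicotinic acetylcholine receptor of muscle, had its members 5917.5 and 9317.5 bp from the start, within a gene of 11.9 kb. Zfp956, a zinc finger gene, had them 8373.5 and 9203.5 bp from the start, 830 bp apart, the closest neighbours among all members. Slc12a3, the thiazide-sensitive sodium chloride cotransporter gene known from the kidney, had them at 13754.5 and 29564.5 bp. Rundc3b had them at 47690.5 and 63490.5 bp, and Ttll11, a gene of the tubulin tyrosine ligase-like family, at 12112.5 and 37032.5 bp. Chrnb1, Zfp956 and Rundc3b also had 0 positions in resilient against control, whereas Slc12a3 had 2 Down and Ttll11 had 1 Up and 1 Down. Over all 450 genes, 172 had no position in the 2 tables besides their members, and 128 of those had none in resilient against control. Most of the 450 genes, 420, had 1 member. The matching share over all named genes is not given here, so nothing is read from these counts.

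Other genes with 2 members each included several known from the nervous system. Nlgn1, which encodes the postsynaptic adhesion protein neuroligin 1, had members 138017.5 and 596707.5 bp from its start, among 7 Up and 3 Down positions in susceptible against control and 7 Up and 4 Down in resilient against susceptible. The member 596707.5 bp into Nlgn1 lay inside an ACF1 segment of the control and of the resilient list and 19321 bp from the nearest susceptible one. Dscam, which encodes a cell adhesion molecule of neuronal wiring, had its members 94660.5 and 108790.5 bp from the start. In Dscam, 3 positions were Up and 5 Down in susceptible against control, and 5 Up and 2 Down in resilient against susceptible, so both of its Down positions there were members. Asic2, a proton-gated ion channel gene, had 2 members among 6 Up and 1 Down in susceptible against control, and 6 Down and 3 Up in resilient against susceptible. Gpc5, a heparan sulfate proteoglycan gene, had 2 members among 4 Up and 5 Down in susceptible against control, and 9 Down and 4 Up in resilient against susceptible. The Gpc5 member at 115696831 of chromosome 14 lay 631 bp from a susceptible ACF1 segment, with the nearest control segment 3969431 bp away.

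The rest of these genes are known from a wide range of tissues. They included the cone photoreceptor channel gene Cngb3, the cell cycle kinase gene Cdk6, the T-box transcription factor gene Tbx15, Tex14 of the germ cell bridges, the helicase gene Ascc3, the transporter gene Abca13, Arhgap25 and Arhgap28, and the guanylate cyclase gene Gucy2d. Psg23, Sirpb1b, Fam189a1 and the transcripts 3100003L05Rik, 1700007G11Rik, 4930474H20Rik and D130009I18Rik made up the remainder. Psg23 had 1 member 191.5 bp before its start, in the window printed above, and 1 in the gene body 3468.5 bp after it. Arhgap25 likewise had 1 member of a promoter class, 1632.5 bp after its start, and 1 at 18492.5 bp.

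**Figure D3:**
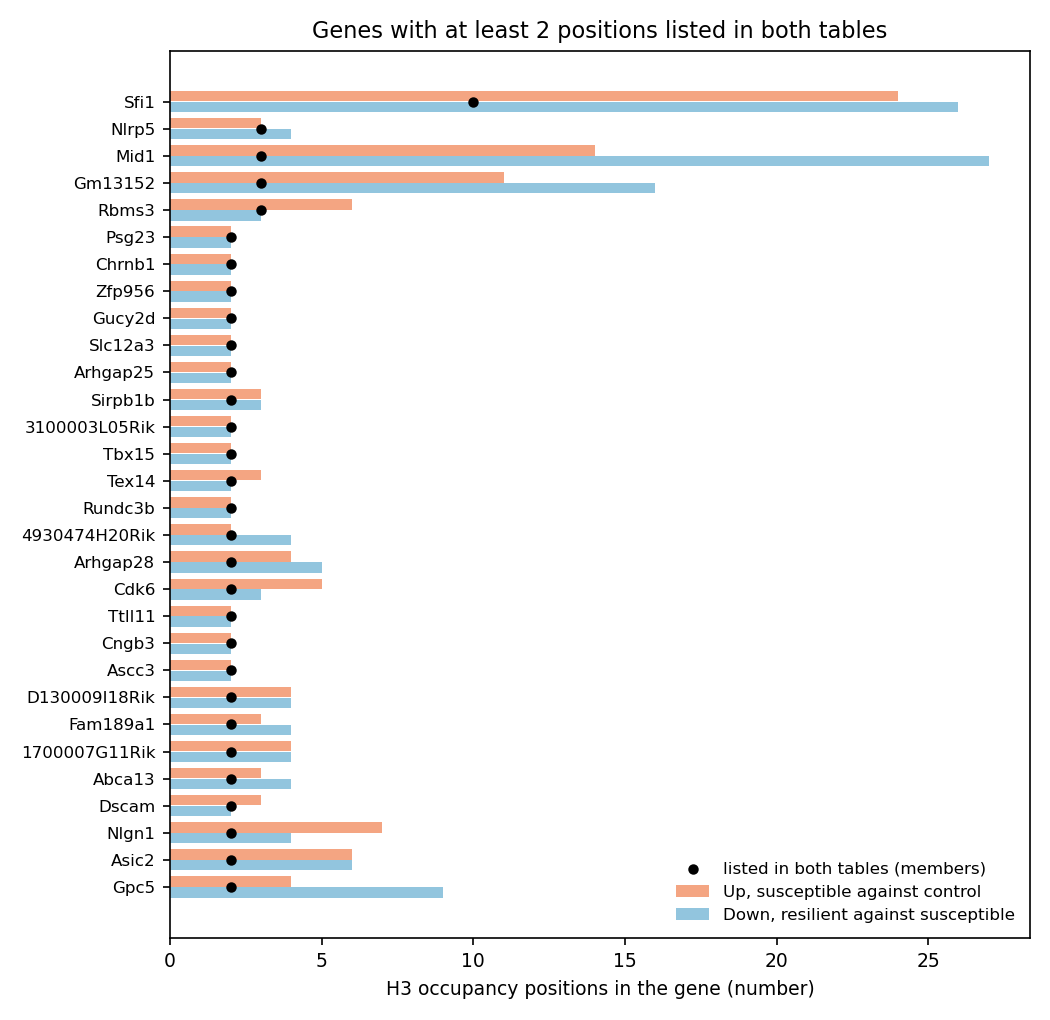
Number of listed H3 positions in the 30 genes with at least 2 members, as bars for Up in susceptible against control (orange) and Down in resilient against susceptible (blue), with black points for the members. Sfi1 had 10 members among 24 Up and 26 Down positions, and in Chrnb1 and Zfp956 the bars end at the points.

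In the promoter classes, 33 of the 59 members lay before the gene start and 26 after it, at 59 different genes. All 20 members nearest to a start were highest in susceptible mice, as were nearly all members. The class nearest to the start, proximal promoter, held 4: Slc36a3 at 133.5 bp and Psg23 at 191.5 bp before the start, and Glipr1 at 218.5 bp and Tnip3, which encodes a binding partner of the NF-kappaB inhibitor A20, at 220.5 bp after it. Within 1 kb followed 13 more. Among them were Ebf2, an Ebf-family transcription factor gene, 556.5 bp before its start, Tead4, a transcription factor of the Hippo pathway, 790.5 bp before, and H1foo, the linker histone gene of the oocyte, 794.5 bp before. Jup, which encodes the junction protein plakoglobin, had its member 827.5 bp before the start, and Oas1g, an interferon-induced gene, 874.5 bp before. Skint8, Gcnt1, Agr3 and Fam65b had members 307.5 to 876.5 bp before the start, and Lce1e, Tmc5, Olfr1211 and Smarca5-ps, the last a pseudogene of the SNF2H gene, 344.5 to 599.5 bp after it. F12, which encodes coagulation factor XII, had its member 1031.5 bp after the start, and Adam6b and Rhbdl2 had theirs 1043.5 and 1115.5 bp before.

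A RefSeq promoter window was found for 45 of the 59 genes with a member in a promoter class, or 76.3%. This is under the 80% required here, so a comparison of base composition or motifs over these genes is void, and none is given.

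Several lists of genes known from neurons and signalling held members. All list members named here were highest in susceptible mice, but so were 1518 of all 1525 members by the marks that chose them. The lists were drawn up with earlier results of these data known. Of the 24 glutamate receptor and synapse genes named in the 2 tables, 3 had a member (12.5%), against 8.37% of all named genes, among them Nlgn1 and the NMDA receptor subunit gene Grin2a. The 4 members of this list were among its 19 Up positions in susceptible against control and its 22 Down in resilient against susceptible. Grin2a had 2 Up and 1 Down in susceptible against control and 4 Down and 1 Up in resilient against susceptible. Of 10 GABA and glycine receptor genes, 2 had a member, among them the GABA-B receptor gene Gabbr2.

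Ion channel genes held members in 6 of 21 (28.6%, against 8.37% of all named genes). Gene length, which goes with the number of listed positions, was not matched here or in the other lists. The 7 members of this list were among its 21 Up positions in susceptible against control and its 27 Down in resilient against susceptible. Besides Asic2 the genes with a member were the voltage-gated potassium channel genes Kcnc2, Kcnh5 and Kcnh8 and the ryanodine receptor genes Ryr2 and Ryr3, whose products release calcium from internal stores. Kcnh5 and Ryr3 had 1 Up position each in susceptible against control, the member itself, and 0 in resilient against control. Ryr2 had 2 Up and 5 Down in susceptible against control, while all 4 of its positions in resilient against susceptible were Down.

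Adhesion and axon guidance genes held members in 12 of 47 (25.5%, against 8.37%), with 13 members. Guidance factors were represented by the semaphorin genes Sema3d and Sema3e and by Slit2, and guidance receptors by Ephb1. Cell adhesion molecules were represented by Dscam, Cdh6, Cntn6, Cntnap5c and Negr1. The very long genes Fhit, Wwox and Macrod2 made up the remainder. Fhit had 1 member among 11 Up and 8 Down positions in susceptible against control, and Wwox 1 among 6 Up and 8 Down. Ephb1 had 2 Up positions in susceptible against control, 1 position in resilient against susceptible, which was its member, and 0 in resilient against control.

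A list of growth factor, neuregulin, receptor and receptor phosphatase genes held members in 6 of 15 (40.0%, against 8.37%). Vegfa, the vascular endothelial growth factor gene, had its single position 1805.5 bp before the start, in both tables, and 0 positions in resilient against control. Igf1, the insulin-like growth factor gene, had its member 72276.5 bp from the start, and the neuregulin gene Nrg3, Fgf12 and the receptor phosphatase genes Ptprt and Ptprd had 1 each. Igf1 also had 1 Up position in resilient against susceptible, and Ptprt had 5.

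In the list of stress, monoamine and neuropeptide genes, 1 of 13 (7.69%, against 8.37%) had a member, Chrm3, a muscarinic acetylcholine receptor gene, with 6 Up and 3 Down in susceptible against control and 5 Down and 0 Up in resilient against susceptible. Cyclic nucleotide and calcium signalling genes had 4 of 26 (15.4%, against 8.37%), the phosphodiesterase genes Pde4b and Pde4d, the G protein regulator gene Rgs6 and the diacylglycerol kinase gene Dgki. Of 2 immediate early genes named in the tables, Fosl2, which encodes a Fos-family transcription factor, had its single position 4487.5 bp after the start, in both tables. Chromatin remodeller and histone modifier genes held 0 members in 15 named genes, among them 3 Up of 15 positions in susceptible against control and 9 Down of 18 in resilient against susceptible.

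Markers of cell types gave little to read. Of the endothelial and mural cell markers, 1 of 3 named genes had a member, the VEGF receptor gene Flt1, with 2 Up and 1 Down in susceptible against control, while both of its positions in resilient against susceptible were Down. Members numbered 0 for the named markers of astrocytes (2), oligodendrocyte precursors (1), microglia (1), medium spiny neurons (1), interneurons (3) and cortical excitatory neurons (4). No oligodendrocyte marker was named in the 2 tables. Over all named genes 8.37% had a member, so with so few markers named these counts do not set cell types apart. Levels cannot be read from these tables, so the labelled tissue could not be checked against its markers, and the part of cell makeup was not tested.

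Some further genes of neuronal interest were picked after their values had been seen. Tph2, which encodes the enzyme of serotonin synthesis in neurons, had its member 54586.5 bp from the start, with 1 Up and 3 Down in susceptible against control, and its member was the single position in resilient against susceptible. Sirt1, a protein deacetylase gene, had its single position 3438.5 bp after the start, in both tables. Slc17a8, the vesicular glutamate transporter 3 gene, and Cacnb3, a calcium channel subunit gene, also had 1 Up and 1 Down position in these tables, the same position each time, and 0 in resilient against control. Hcn2, a pacemaker channel gene, had such a position 11953.5 bp from its start, beside 1 Down in resilient against control. Adra1b, an adrenergic receptor gene, had its member in a promoter class 2242.5 bp after the start.

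ACF1 was measured in other libraries than H3 and was not used by the rule. The files divide the genome into 2 states, of which the minority state was taken as ACF1 segments; nothing in them says which state stands for binding. Outside chromosome 1 these segments covered 3704 kb in the susceptible list, 2514 kb in the resilient list and 2213 kb in the control list. Within 1000 bp of a susceptible segment lay 38 members (2.49%), where the share over all 30055 positions of the 2 tables was 1.66%. Within 1000 bp of a resilient segment lay 35 members (2.3%), against 1.19% of all positions, and of a control segment 36 members (2.36%), against 1.26%. Inside a segment lay 37, 33 and 33 members for the susceptible, resilient and control lists, with shares over all positions of 1.45%, 1.06% and 1.12%. The members' share thus exceeded that of the 2 tables for all 3 lists, and it differed little between the lists. The gap to all positions was smallest for the susceptible list, whose segments cover the most sequence.

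A few places held most of the members inside segments. Of the 37 inside a susceptible segment, 11 lay at Sfi1 and Pisd-ps1, 7 on chromosome Y, 5 on chromosome X and 4 between 145 and 147 Mb of chromosome 4. These places were picked after the members had been seen. Outside them, 10 of 1490 members (0.671%) lay inside a susceptible segment, against 0.721% of the other positions of the 2 tables. For resilient segments the shares outside these places were 0.403% of the members and 0.405% of the other positions, and for control segments 0.47% and 0.426%. Places picked for the members they held lower the members' share by that choice, so these shares show only how much of the count rests on a few places.

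Segments in all 3 lists held 30 of the 39 members that lay inside any segment. Inside a susceptible segment alone lay 4 members, at 44058761 of chromosome 14, 3165311 of chromosome 4, 26533251 of chromosome 5 and 26980241 of chromosome 6, with no gene named at any of them. The nearest segment of another list was 8840 bp away for the first, a resilient one. Inside a control segment and no susceptible one lay 2 members, those of Nlgn1 and Mid1 described above.

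Positions highest in susceptible mice were set beside the sets that share part of their marks. Within 1000 bp of a susceptible segment lay 2.5% of them, 2.23% of the positions Up in susceptible against control alone and 2.57% of those Down in resilient against susceptible alone. The share was 0.78% for positions highest in resilient mice and 1.77% for positions highest in control mice. Positions highest in resilient mice were, of these sets, the least often near segments of every list, also of their own, with 0.709% within 1000 bp of a resilient segment. No test over samples was possible, and the clustering at a few places touches all of these shares.

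**Figure D4:**
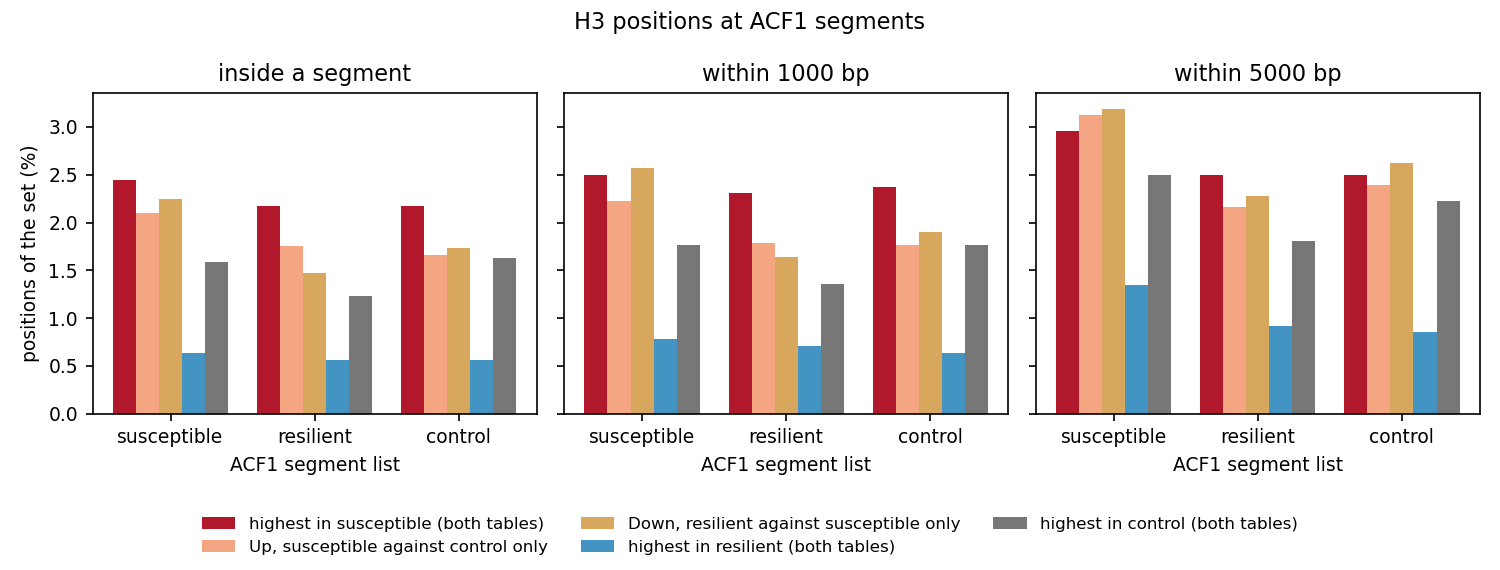
Share of H3 positions (%) inside, within 1000 bp and within 5000 bp of ACF1 segments of the susceptible, resilient and control lists, by set of positions. Positions highest in susceptible mice had 2.5% within 1000 bp of a susceptible segment and those highest in resilient mice 0.78%.

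Nucleosome shifts were listed by the authors in tables of their own with the distance moved. Within 200 bp of a shift of susceptible against control lay 2 members (0.131%), against 0.25% of all positions of the 2 tables. For shifts of resilient against susceptible it was 1 member (0.0656%), against 0.226%, and for those of resilient against control 0 members, against 0.366%. Positions highest in resilient mice were as scarce, with 0.0709%, 0% and 0% beside these shift tables in the same order. Those highest in control mice had 0.363%, 0% and 0.272%. Within 1000 bp members stood above all positions for the first 2 shift tables, with 0.721% of members against 0.532% of all positions, and 1.11% against 0.566%. The tables held 579, 511 and 545 shifts outside chromosome 1. Of these members, 2 were on chromosome Y, at 2877091 and 2899941, with shifts of -70 and -60 bp in susceptible against control at 140 and 90 bp from them. The other was the Sfi1 member at 3058631, where resilient against susceptible listed a shift of 80 bp at the same position.

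Positions listed in 1 of the 2 tables alone lay beside shifts of the other table more often. Of the 5196 positions Up in susceptible against control alone, 57 (1.1%) lay within 200 bp of a shift of resilient against susceptible, and 53 of these within 100 bp. Of the 6143 positions Down in resilient against susceptible alone, 54 (0.879%) lay within 200 bp of a shift of susceptible against control. Among members the shares were 0.0656% and 0.131%. Beside shifts of their own table the sets differed less, with 0.131% of members against 0.115% of the positions Up in susceptible against control alone, and 0.0656% against 0.0488% of those Down in resilient against susceptible alone. A nucleosome that moved in 1 comparison would be listed at another coordinate there, and exact matching leaves such positions out of the members. The part of this in the difference was not tested.

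**Figure D5:**
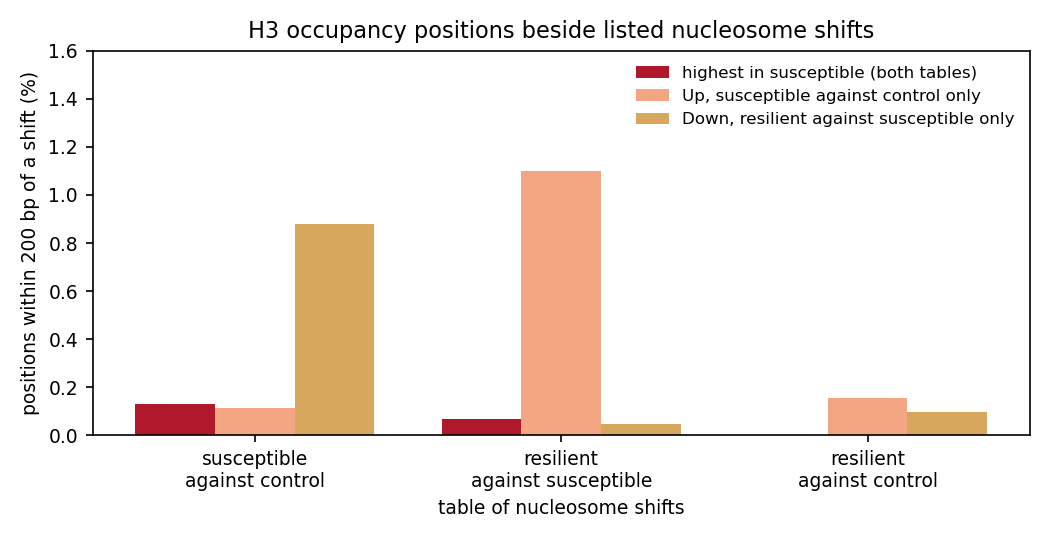
Share of H3 positions (%) within 200 bp of a listed nucleosome shift, for each shift table and 3 sets of positions. Members highest in susceptible mice are at most 0.132%. The other 2 sets are at most 0.154% beside shifts of their own table and of resilient against control. Positions Up in susceptible against control alone reach 1.1% in the resilient against susceptible shifts. Those Down in resilient against susceptible alone reach 0.879% in the susceptible against control shifts.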

How the data were processed

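Chromatin of the nucleus accumbens was profiled by ChIP-seq, with 15 PCR cycles and 100 bp reads for H3, per the labels. The submitters' processing notes name CASAVA 1.8.2 and the build mm9; which aligner and which programs made the tables is not given in the sources used here. The deposited H3 tables hold positions the authors selected, with Up or Down marks, the distance to the gene start in bp and, for shifts, the bp moved, without read counts, sizes of change or p-values. The pair of groups was read from the name of each deposited table. The deposited ACF1 files hold 2 states in steps of 200 bp. Depth is unknown, so no interval was computed.

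Positions were matched exactly, gaps and overlaps were counted, and "near" meant within 1000 bp of a segment or 200 bp of a shift. Coordinates are as deposited, on mm9, and nearly all lie on a 10 bp grid. The matching code was tested on simulated positions. Python 3.11.15, numpy 2.4.6, pandas 2.3.3 and matplotlib 3.10.9 were used. Members and lists were chosen with earlier results of these data known. Named were the 30 genes with the most members (at least 2 each, shorter genes first in ties), every list gene with a member and the 20 members nearest to a gene start; a few list genes are not reported here. The rule's 5 fullest loci could not be formed, since every member stood alone, and 1 Mb blocks took their place. SNF2H and input samples were not used here, and chromosome 1 entered only the alternative counts that keep it and the closing paragraph.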

Additional observations from a re-analysis of the deposited data

How the results depend on the processing

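Over 34 alternatives to 11 counts, 33 stayed within 1.5 times the value reported. The exception was the number of members near a nucleosome shift, 3 within 200 bp, which became 23 within 1000 bp, where more sequence is searched; it was 2 within 100 bp. The number of members was 1526, 1536 and 1548 when positions within 10, 50 and 100 bp counted as shared, 1849 with chromosome 1 and 1507 without chromosomes X and Y. Some alternatives could not move their count, such as joining members within 200 bp when the smallest gap was 830 bp. The 5 members with lowest H3 in susceptible mice were not among the counts varied. Beside them, 13 pairs with these marks lay within 100 bp without an exact match. Members near a susceptible ACF1 segment numbered 27 without the fullest 1 Mb block and 26 without chromosomes X and Y, against 38. No paired analysis was possible because a group was represented by a single H3 sample and a pair of groups by a single deposited table. The alternatives for chromosome 7 and for the gene lists were added after the data had been seen. Without counts, depth sets an unknown limit, and Up or Down carries no size.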

Other observations

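Gene families, grouped by symbol after the members had been seen, differed in how many of their named genes held a member. Of the Skint genes, a family expressed in skin and thymus, 4 of 11 named in the 2 tables had one: Skint2, Skint4, Skint5 and Skint8. Of the Nlrp genes, 5 of 15 had one, with 7 members in Nlrp4c, Nlrp4e, Nlrp4f, Nlrp5 and Nlrp5-ps. Olfactory receptor genes had 3 of 116, vomeronasal receptor genes 3 of 72, zinc finger genes named Zfp 6 of 75 and solute carrier genes 8 of 133. Over all named genes the share was 8.37%. These families were picked for their counts and carry no test.

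Chromosome 1, which the rule leaves out, held 135 positions highest in susceptible mice by the same marks, or 0.685 per Mb, where the other autosomes held 0.659 per Mb. These lie in an uneven table: chromosome 1 held 32791 positions of susceptible against control, against 1310 of resilient against susceptible and 1406 of resilient against control. It also held 182 positions marked Down in each of the 2 tables, a pattern with 0 positions on the other chromosomes.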
